A study of Mus musculus with 9 samples.

Results

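Car9, Pkm and Ppargc1a are genes of the hypoxia response, of glycolysis and of mitochondrial biogenesis. Chromatin accessibility at these 3 genes was examined in mouse muscle cells exposed to ammonium acetate. Their regions were those in the authors' 3 deposited lists of regions that carry the gene's symbol, or that overlap its RefSeq gene body plus 5 kb on each side on mm10. The rule found 5 regions among the 1832 different regions in the lists: 3 at Car9, 1 at Pkm and 1 at Ppargc1a. The genes were chosen because they had listed regions, so the log2 fold changes and p-values of the 5 regions describe them and are no test.

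The study used C2C12 myotubes, multinucleate cells differentiated in horse serum from the mouse myoblast line C2C12, and ATAC-seq, which reads open chromatin from where a transposase inserts sequencing adapters. There were 9 libraries in 3 groups of 3, which the labels call biological replicates: untreated, and 10 mM ammonium acetate over 3 h or over 24 h. All groups come from 1 cell line, and no group received acetate without ammonium, so ammonia and acetate cannot be told apart. The untreated group carries no time, so time in culture may differ along with exposure.

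The deposited tables hold no values per library, so neither depth nor the spread of single libraries can be shown, and precision enters through the authors' edgeR test. They hold only regions past a limit: for 3 h against untreated (588 regions) and 24 h against 3 h (1256 regions) a raw p below 0.005 and a fold of 1.5 or more, and for 24 h against untreated (150 regions) an adjusted p below 0.05. The myotube label could not be checked against marker genes from such lists. Of 10 myotube markers, 1 (Actc1) had a region at 3 h and in 24 h against 3 h, and 0 in 24 h against untreated. Over all 21883 protein-coding genes, 1.97%, 3.59% and 0.352% had a region within 5 kb in these lists, in that order.

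Car9 encodes carbonic anhydrase IX, a membrane enzyme that hydrates carbon dioxide outside the cell. It is a standard target of HIF, the transcription factor that is stabilised when oxygen is low, which binds a hypoxia response element beside the start of the human gene. Pkm encodes the muscle pyruvate kinases, which catalyse the last step of glycolysis, and alternative splicing of its transcript gives the PKM1 and PKM2 forms. Ppargc1a encodes PGC-1alpha, a coactivator that drives mitochondrial genes in muscle. In muscle it is transcribed from a proximal and an alternative promoter, and transcripts that begin far upstream have been described in human brain.

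The position of each region against the annotated starts is what the maps show, so sequence from the windows around those starts is given first. RefSeq promoter windows (GRCm38.p6, 250 bases before to 50 after a start) matched all 3 genes, with 1 window each for Car9 and Ppargc1a and 2 for Pkm. Stretches of 30 bases are printed 5′ to 3′ on the gene's strand, with CACGT in capitals, which reads ACGTG, a core of the hypoxia response element, on the opposite strand. The Pkm stretches are shown because they lie inside a listed region, and the others because no listed region covers them.
Car9, just before the start, chr4:43506996-43507025, plus strand: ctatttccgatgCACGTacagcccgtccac
Pkm listed region, first match, chr9:59657140-59657169, plus strand: ctccgatccggtCACGTccgcgccgcagca
Pkm listed region, next match, chr9:59657223-59657252, plus strand: ccgcattctagtCACGTccgcggactcctc
Ppargc1a, before the proximal start, chr5:51567759-51567788, minus strand: caggtgccctccCACGTcactgagctccag

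The motifs ACGTG and GCGTG (cores of the hypoxia response element), TGACGTCA (the cAMP response element), TGACG (a part of it) and CACGTG (an E-box, which contains ACGTG) were searched on both strands. ACGTG was in 19.6% of all 32851 RefSeq promoter windows, and ACGTG or GCGTG in 43.8%, so a match is common. In the Car9 window ACGTG lay 18 bases before the start. In the proximal Ppargc1a window it shared bases with a match to TGACG, which 20.8% of windows hold. The Pkm window at the gene's 5′ end held TGACG after the start and no ACGTG. The other Pkm window held ACGTG on the opposite strand at both places shown, each time within the same 12 bases, GTCACGTCCGCG, repeated 83 bp apart. These 12 bases were singled out after the sequence was seen, because they repeat in it. They were in 2 of the 32851 windows, and only the Pkm window held them more than once. Since the repeat was the reason for the choice, these counts are no test. A match is a description of letters and not of a factor bound there.

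**Figure D1:**
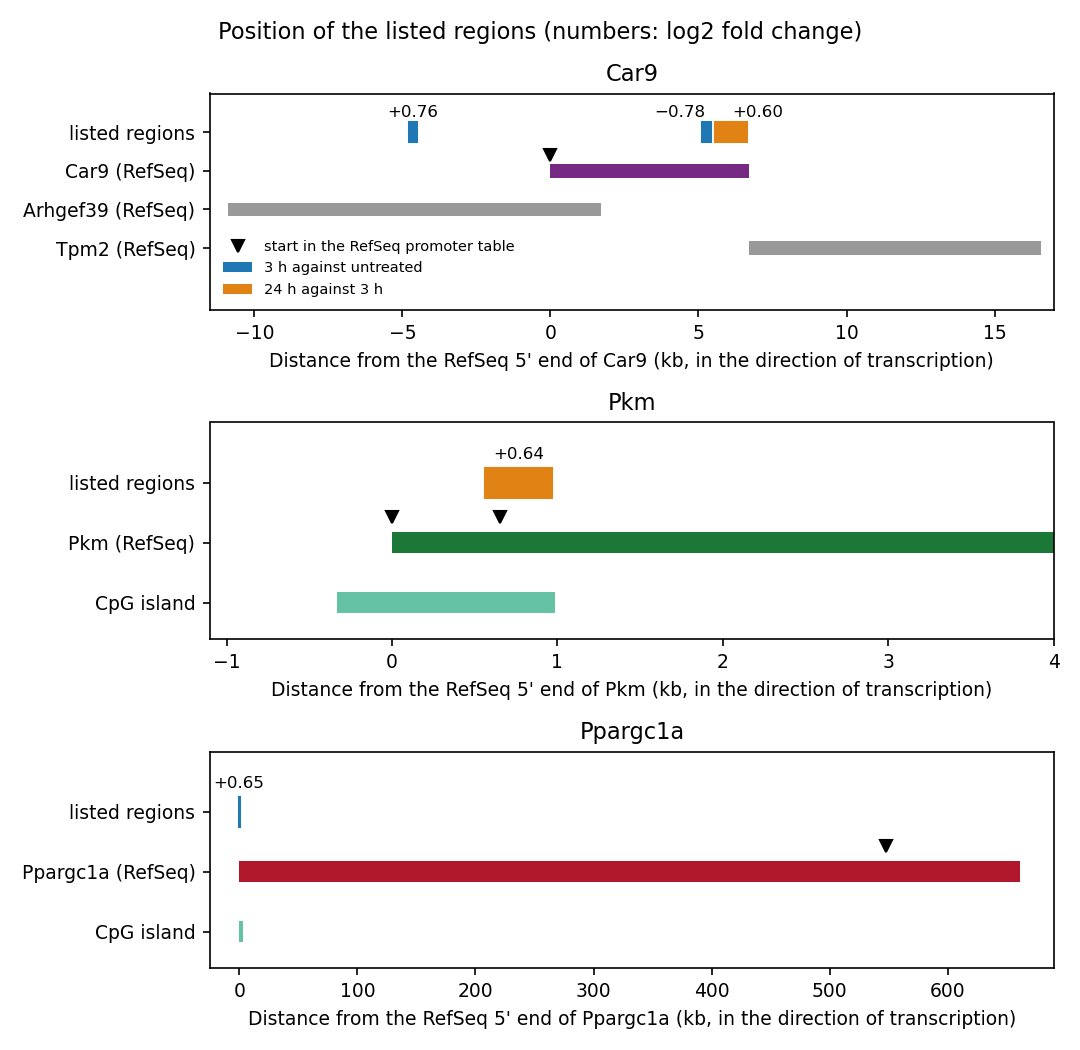
Positions of the 5 listed regions in kb from the RefSeq 5′ end of each gene, in the direction of transcription (blue, 3 h against untreated; orange, 24 h against 3 h), with the deposited log2 fold change above each; the Pkm gene runs on past its panel. Triangles are the starts of the RefSeq promoter table: the region at Pkm covers the second start, no region covers the Car9 start, and the region at Ppargc1a lies 548 kb from the proximal start.

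At Car9, 3 regions were listed and none of them covered the start of the gene. In the deposited list of 3 h against untreated, the region upstream of the gene was higher at 3 h and the region over late exons and introns was lower. In 24 h against 3 h, the region at the gene's 3′ end was higher at 24 h. None had an adjusted p below 0.05.

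The upstream Car9 region (chromosome 4, 43502236 to 43502517, mm10, 282 bp) lies 4509 bp before the RefSeq 5′ end, in a CpG shelf. Its log2 fold change at 3 h was 0.76, a 1.70-fold higher accessibility, with an approximate standard error of 0.24 and an approximate 95% interval of 0.27 to 1.26 (the authors' deposited table, edgeR adjusted p = 0.9999, raw p = 0.00434). This region lies wholly within the RefSeq body of Arhgef39, a guanine nucleotide exchange factor gene, which overlaps the first 1722 bp of Car9. The region can therefore be assigned to either gene.

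The region over Car9 exons and introns (chromosome 4, 43512148 to 43512466, 319 bp) had a log2 fold change of -0.78 at 3 h, with an approximate standard error of 0.24 and an interval of -1.28 to -0.29 (the authors' deposited table, edgeR adjusted p = 0.9999, raw p = 0.00361). It was the 1 of the 5 regions with a negative value. It begins 5122 bp after the RefSeq 5′ end. The deposited annotation also places all 319 bp in the class 1 to 5 kb upstream of 2 Arhgef39 transcripts.

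The third Car9 region (chromosome 4, 43512597 to 43513656, 1060 bp) begins 130 bp after the end of the second and covers 546 bp of the 3′ untranslated region. In 24 h against 3 h its log2 fold change was 0.60, or 1.52-fold, with an approximate standard error of 0.18 and an interval of 0.23 to 0.98 (the authors' deposited table, edgeR adjusted p = 0.473). It ends 70 bp from Tpm2, the beta-tropomyosin gene of the sarcomere, whose RefSeq body overlaps that of Car9 by 4 bp at their 3′ ends. As with the second region, the deposited annotation also places all 1060 bp in the class 1 to 5 kb upstream of 2 Arhgef39 transcripts. Both regions within the Car9 body were thus lower in the 3 h libraries than in the group set against them, but the 2 comparisons share those libraries.

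The authors number their regions along the genome, and the numbers rose with position on all 20 chromosomes that have a listed region. The upstream Car9 region and the region over its exons have 2 numbered regions between them, and the latter and the 3′ end region have consecutive numbers. The 2 regions in between stood in none of the lists, and their positions are not given. The next listed regions lay 489.6 kb before and 1944 kb after those at Car9, with 222 other numbered regions in that span. The lack of a near listed neighbour was not particular to Car9. The nearest other listed region was 534.5 kb away at Pkm and 1076 kb away at Ppargc1a.

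At Pkm, 1 region was listed, only in 24 h against 3 h, and it covered the second RefSeq start of the gene. The region (chromosome 9, 59657140 to 59657544, 405 bp) had a log2 fold change of 0.64, or 1.56-fold higher at 24 h, with an approximate standard error of 0.20 and an interval of 0.23 to 1.05 (the authors' deposited table, edgeR adjusted p = 0.506, raw p = 0.00407). It starts 564 bp after the RefSeq 5′ end of Pkm and covers the second RefSeq start, 87 bp from its edge, together with 137 bp of that start's window. In the deposited annotation it also covers the starts of 2 Ensembl transcripts and up to 131 bp of 5′ untranslated exon, and for 3 transcripts it counts as promoter. For other transcripts the same bases are the first intron. The alternatively spliced exons of PKM1 and PKM2 lie farther down the gene, where no region was listed. The nearest listed region outside the gene was 534.5 kb away.

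At Ppargc1a, 1 region was listed, only in 3 h against untreated, at the most distal 5′ end of the RefSeq gene. The region (chromosome 5, 52115569 to 52116506, 938 bp) had a log2 fold change of 0.65, or 1.57-fold higher at 3 h, with an approximate standard error of 0.18 and an interval of 0.28 to 1.01 (the authors' deposited table, edgeR adjusted p = 0.947, raw p = 0.00136). It covers the RefSeq 5′ end, with 285 bp inside the gene body and 653 bp beyond it, and lies 548 kb from the proximal start in the RefSeq promoter table. The RefSeq body is 662 kb long, and no other region within it was listed. The deposited annotation gives this region no gene symbol and places 743 bp of it in the class 1 to 5 kb upstream, and 195 bp in the promoter class, of an unnamed transcript on the opposite strand, ENSMUST00000197032.1, whose start lies 1459 bp from the RefSeq 5′ end. It therefore belongs to Ppargc1a by its RefSeq extent alone, and the deposited symbols alone would give 4 regions.

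**Figure D2:**
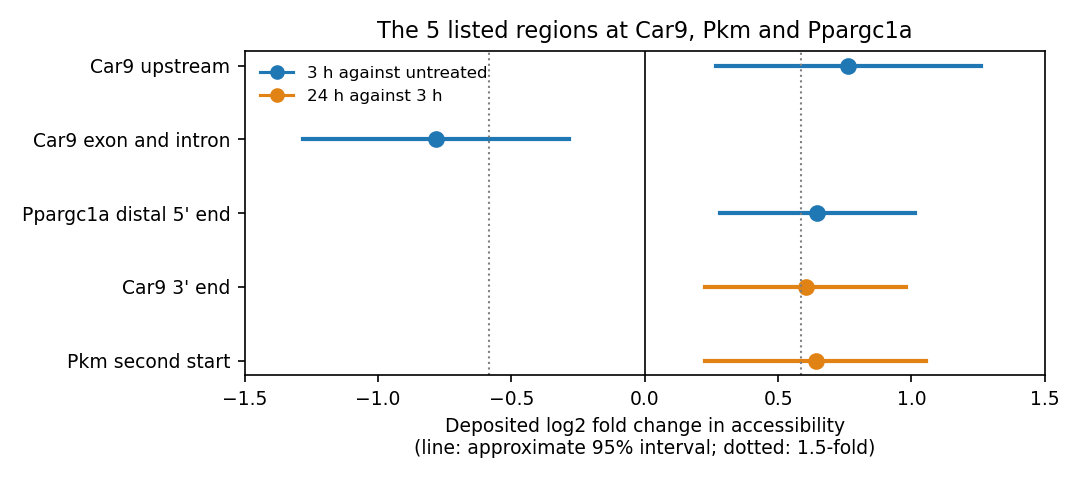
Deposited log2 fold change of the 5 regions with approximate 95% intervals, and dotted lines at the 1.5-fold limit of the lists. The values lie between 0.60 and 0.78 in size, all outside the dotted lines, and only the Car9 region over exons and introns is negative.

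None of the 5 regions stood near the top of its list. The log2 limit of a 1.5-fold change is 0.58, the smallest size listed was 0.59 in both lists, and the 5 regions ran from 0.60 to 0.78. Since p below 0.005 was required, each interval had to exclude 0. By p, Ppargc1a ranked 209, the Car9 exon region 461 and the Car9 upstream region 528 of 588 at 3 h, and the Car9 3′ end ranked 908 and Pkm 1085 of 1256 in 24 h against 3 h. By size of fold, the Car9 exon and upstream regions ranked 252 and 277 and Ppargc1a 469 of 588, and Pkm ranked 1065 and the Car9 3′ end 1206 of 1256. The Car9 3′ end was thus the closest to the fold limit. Regions just outside the limits were not analysed here.

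At 3 h, 3 of the 5 regions were listed, where 0.403% of the 146047 tested regions were. In 24 h against 3 h, 2 were listed, where 0.86% of tested regions were, and in 24 h against untreated 0 were listed, where 0.103% were. By direction, the 3 h list held 0.224% of tested regions as higher and 0.179% as lower, and 24 h against 3 h held 0.475% as higher. Nothing is read from these counts, since the genes were chosen by them. An adjusted p below 0.05 was reached by 0.000685% of tested regions at 3 h, which is 1 region and none of these. In 24 h against 3 h it was reached by 0 of the 146047 tested regions.

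A place in 1 list does not show that a region was alike in the others. With the standard errors above, a log2 difference of 1.21 at the Car9 upstream and exon regions, 1.003 at Pkm, 0.91 at the Car9 3′ end and 0.89 at Ppargc1a would have been needed for the list of 24 h against untreated. Each of these is larger than the change the region showed in its own list. In the comparison of 24 h with 3 h, the same estimate puts the unlisted change at Ppargc1a within 0.58 in size and that at the Car9 upstream and exon regions within 0.75. At 3 h against untreated it puts the unlisted change within 0.62 at Pkm, about as large as its listed 0.64, and within 0.58 at the Car9 3′ end.

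Coverage differed among the 5 regions. Mean log2 CPM over the libraries was 1.30 at the Car9 upstream region, 1.54 at the Car9 exon region, 2.56 at Pkm, 3.25 at the Car9 3′ end and 3.39 at Ppargc1a. The first 2 stand low in the 3 h list, at percentiles 13.9 and 17.7, while Ppargc1a is at percentile 78.9. Per kb of region the levels drew together, at 8.71, 9.14 and 8.97 CPM per kb for the 3 Car9 regions in order along the gene, 11.2 at Ppargc1a and 14.6 at Pkm. The Pkm level per kb is at percentile 85.4 of its list, and the others are between percentiles 43.4 and 61.7 of theirs. CPM was lowest in the 2 narrowest regions (282 and 319 bp) and highest in the 2 widest (938 and 1060 bp).

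**Figure D3:**
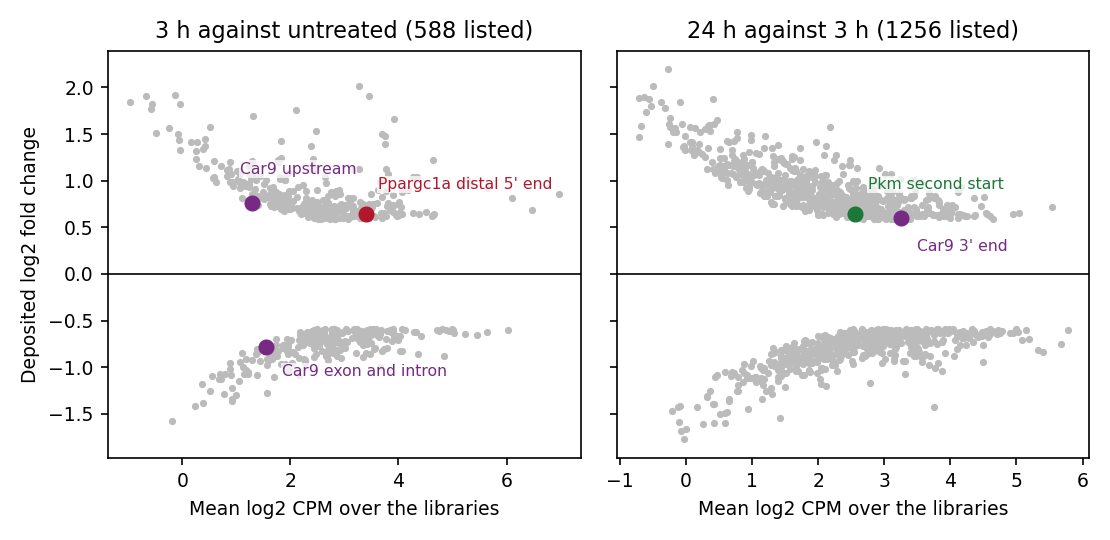
Deposited log2 fold change against mean log2 CPM over the libraries for all listed regions (grey) of 3 h against untreated (588 regions) and 24 h against 3 h (1256 regions), with the 5 regions in colour. The listed regions leave an empty band around 0 that is widest at low CPM, and the 5 regions lie beside it, within the spread of the others.

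CpG islands are stretches rich in CpG that mark many promoters. The Pkm region lies wholly within an island and 688 bp of the Ppargc1a region do, while no Car9 region touches one. At 3 h, 28 of the 29 listed island regions were higher and 1 was lower, and Ppargc1a was among those that were higher, with 0.65 against a median log2 fold change of 0.66. In 24 h against 3 h, 75 of the 76 listed island regions were lower, with log2 fold changes from -1.20 to -0.59. The 1 that was higher was the region at Pkm, with 0.64. By p it ranked only 72 of the 76 (the authors' deposited table, edgeR adjusted p = 0.506, raw p = 0.00407). The edgeR adjusted p over the 76 ran from 0.262 to 0.518. Over the whole list 693 of 1256 regions were higher, and of the 176 listed promoter regions, in islands or not, 37 were. The Pkm region was the second narrowest of the 76, at 405 bp against a median of 997 bp, and its mean log2 CPM of 2.56 was below their median of 3.21. The 3 h libraries are in both comparisons, so the 2 patterns are not independent, and the exception was noticed after the values were seen. Pkm and Ppargc1a were each listed in only 1 of these comparisons, so the 2 genes cannot be set against each other here.

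**Figure D4:**
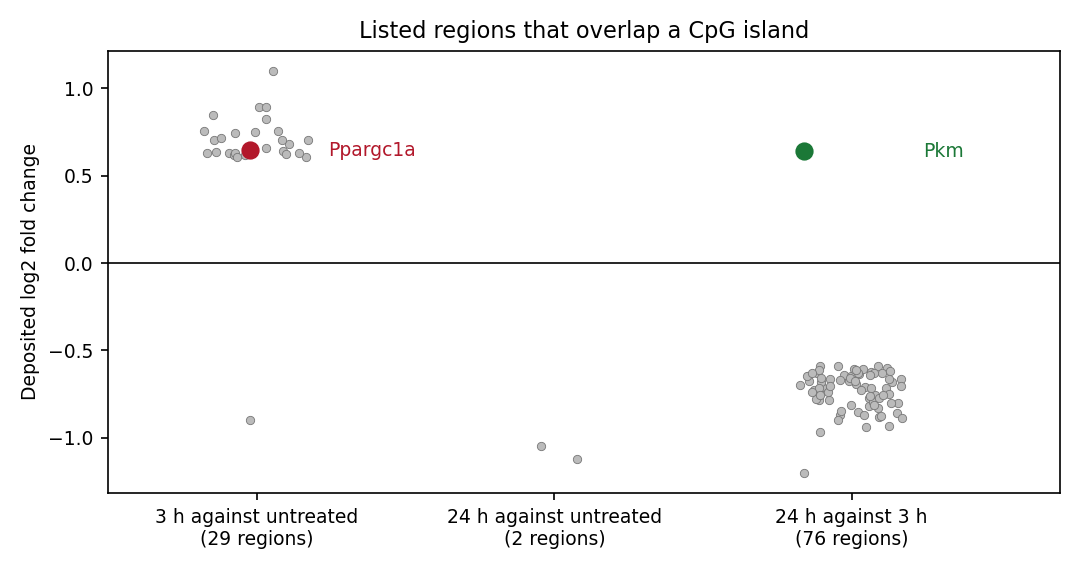
Deposited log2 fold change of every listed region that overlaps a CpG island, by comparison (points are spread sideways only to be visible). Ppargc1a lies with the higher regions at 3 h, and Pkm at 0.64 (edgeR adjusted p = 0.506) is the 1 region above 0 among 76 in 24 h against 3 h.

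The RefSeq promoter windows group the genes differently, with Ppargc1a beside Car9. The Pkm windows hold 27 CpG at the gene's 5′ end and 23 at the start under the listed region, against a median of 7 over all windows. Car9 and the proximal Ppargc1a start hold 5 each. The island under the listed Ppargc1a region is at the distal end of the gene.

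Genes of the same pathways, with these 3 among them, were also searched for listed regions. A set of 7 lists with 154 genes was drawn up for the HIF response, glycolysis and pyruvate handling, PGC-1 partners, the TCA cycle and respiratory chain, mitochondrial dynamics and fatty acid oxidation, carbonic anhydrases, and splicing factors of Pkm. A region within 5 kb was listed for 4 of the 154 at 3 h (2.6%), 2 at 24 h (1.30%) and 8 in 24 h against 3 h (5.19%). Over all 21883 protein-coding genes these shares were 1.97%, 0.352% and 3.59%. The lists were chosen with earlier results known and include the 3 genes themselves, so the counts are descriptions. The 5 regions behind the count at 3 h were 2 higher and 3 lower, where the whole list had 327 higher and 261 lower. The 8 in 24 h against 3 h were 5 higher and 3 lower, where the whole list had 693 and 563.

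In 24 h against untreated, 2 regions near pathway genes were listed. Both have an adjusted p below 0.05 because that list holds no others. Accessibility rose 2.78-fold 3672 bp away from Slc16a3, which encodes the lactate exporter MCT4 (log2 fold change 1.48, the authors' deposited table, edgeR adjusted p = 0.0229). The same region had a log2 fold change of 1.05 in 24 h against 3 h (the authors' deposited table, edgeR adjusted p = 0.308), which leaves 0.42 for 3 h if the comparisons add up. Accessibility fell by 0.89 on the log2 scale at a region 4844 bp from Slc25a20, the mitochondrial carnitine carrier gene (the authors' deposited table, edgeR adjusted p = 0.0432). The deposited annotation gives these regions to Csnk1d and Prkar2a, so neither lies in the pathway gene.

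Glycolysis and pyruvate handling had 4 of 31 genes in 24 h against 3 h (12.9%), with Pkm among them, and 0 in the other comparisons. Over all protein-coding genes the share was 3.59% in 24 h against 3 h, 1.97% at 3 h and 0.352% at 24 h. Nothing is read from these counts, since the list is short and Pkm was chosen for its region. Besides Pkm, the authors' deposited table gave log2 fold changes of 1.33 near the phosphofructokinase gene Pfkl, 0.67 near the enolase gene Eno1 and -1.31 in the pyruvate carboxylase gene Pcx (edgeR adjusted p from 0.444 to 0.520). The Pfkl region is annotated to Cfap410 and the Eno1 region is intergenic. Both the Pfkl and the Pcx region were thinly covered, with a mean log2 CPM of 0.17 and 0.31.

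PGC-1 partners had 2 of 29 genes at 3 h, or 6.90%, against 1.97% of all protein-coding genes. These were Ppargc1a itself and Prkag3, an AMP-activated kinase subunit gene. The region near Prkag3, annotated to Cyp27a1, had a log2 fold change of -1.08 (the authors' deposited table, edgeR adjusted p = 0.9999). In 24 h against 3 h the list had Esrrb, an orphan nuclear receptor gene, with -0.63 in an intron (the authors' deposited table, edgeR adjusted p = 0.514). Among carbonic anhydrases, Car10 had -0.59 in an intron at 3 h (the authors' deposited table, edgeR adjusted p = 0.9999). The TCA cycle list had a region 3157 bp from Dlst, a subunit gene of oxoglutarate dehydrogenase, and annotated to Rps6kl1, with -1.43 in 24 h against 3 h and a mean log2 CPM of 0.17 (the authors' deposited table, edgeR adjusted p = 0.484). The splicing factor list had 0 of 7 genes in every comparison. The shares over all protein-coding genes were 1.97% at 3 h, 0.352% at 24 h and 3.59% in 24 h against 3 h. A list of 7 genes is too short for this count to say anything about these factors.

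**Figure D5:**
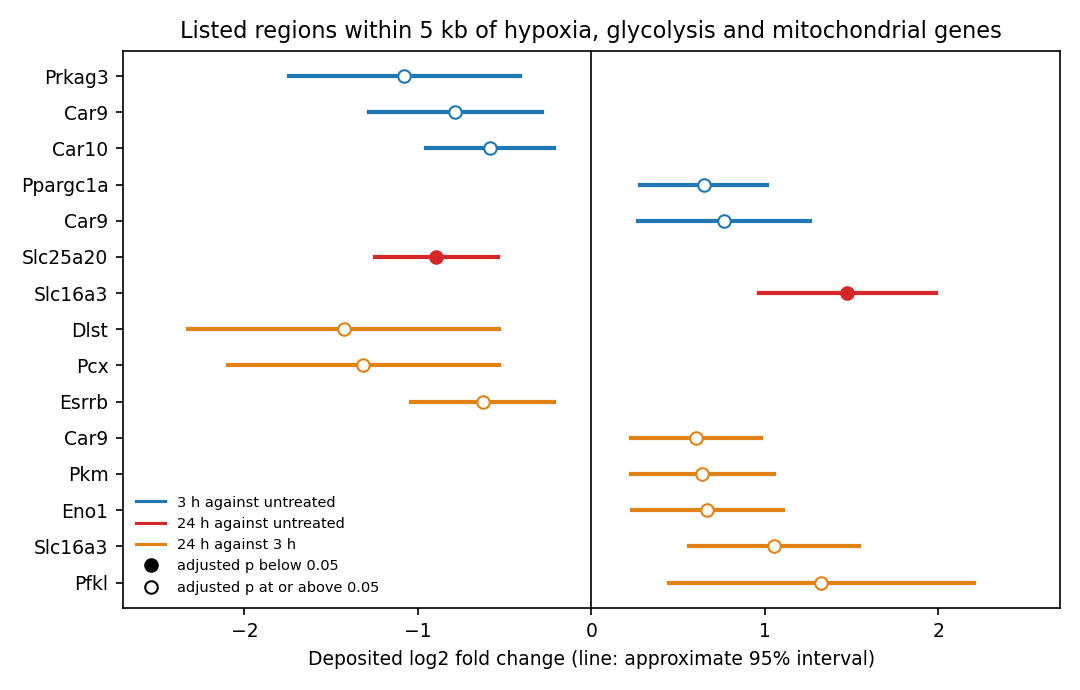
Deposited log2 fold change with an approximate 95% interval for the 15 listed regions within 5 kb of a pathway gene, by comparison. Filled points, near Slc16a3 and Slc25a20 in 24 h against untreated, have an adjusted p below 0.05, and open points do not. That list required such a value, and the other 2 lists were cut on raw p.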

How the data were processed

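The submitters' processing notes name Bowtie2 2.3.4.1 on mm10, MACS2 and edgeR, with Trim Galore 0.4.5 and cutadapt 1.15 for reads and Picard 2.20.2 among the other tools. How these were set, whether reads were shifted for the transposase and whether libraries were pooled for peaks is not given in the sources used here. For each comparison the authors deposited a table with a log2 fold change, a p-value, an adjusted p-value, a mean log2 CPM and an F statistic (a score with no fixed range) for each region. Mean log2 CPM was identical for the 159 regions that stand in more than 1 list, so it was taken as a mean over the libraries.

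Rows were collapsed to regions. The number tested, 146047, was recovered from adjusted p and rank in the list of 24 h against untreated, and F with p gave 21.5 denominator degrees of freedom in every region, both after a check on simulated data. The approximate standard error is the size of the log2 fold change divided by the square root of F, and intervals use those degrees of freedom. The size needed for another list is that standard error times the square root of the smallest F in it, or the fold limit where larger. Genes and promoter windows are RefSeq's on GRCm38.p6, and all 154 list genes matched. No sequence under the other regions was used here.

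The members and lists were chosen with earlier results of these data known. The text names every region of Car9, Pkm and Ppargc1a and the pathway genes with a listed region. No test of differences was run. Scripts ran in Python 3.11.15 with scipy 1.17.1, pandas 2.3.3, numpy 2.4.6 and matplotlib 3.10.9.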

Additional observations from a re-analysis of the deposited data

How the results depend on the processing

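No paired analysis was possible because the comparisons used here carry one value per region and none per library; leaving out replicates, other scaling and a count filter were not run for the same reason. The count of 5 regions at Car9, Pkm and Ppargc1a stayed at 5 with 20 or 50 kb around each gene and was 4 with the gene body or the deposited symbol alone. It was 0 at the raw p limit of the 24 h list, with at least a 2-fold change or with an adjusted p below 0.25, and 1 (the Car9 3′ end) below 0.5. For pathway genes, the counts of 4, 2 and 8 (3 h, 24 h, 24 h against 3 h) became 7, 4 and 13 within 20 kb, 10, 4 and 22 within 50 kb, and 2, 0 and 4 by the deposited symbol. With the gene body alone they were 3, 0 and 4, with at least a 2-fold change 1, 1 and 4, and at the raw p limit 0, 2 and 0. Stricter limits and narrower windows leave fewer regions by construction.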
